A study of Mus musculus with 14 samples.

Results

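Mx1, Mx2, Rsad2 and Cmpk2 are 4 antiviral genes that type I interferon induces. Each was read from the probe set annotated to its symbol alone (the brightest, had there been more than 1 per gene). They are 4 of the 19752 genes that such probe sets represent, and all 4 were among the 11851 genes bright enough to be tested. Mouse CD4+ T cells from the spleens of 6-week-old male C57BL/6 animals, enriched by negative selection, were activated for 48 h with beads that engage CD3 and CD28. They then received interferon alpha at 100 U/ml together with 1 of 7 inhibitors of the Janus kinases (JAKs), each at its IC80, a concentration set by the compound's own potency, and their RNA was hybridised to Affymetrix Mouse Gene 1.0 ST arrays after 8 h or 2 h. The labels name the targets JAK1, JAK1/2, PAN (taken here to include JAK1), TYK2, JAK2 and, for the compounds written IFN.6226 and IFN.6228, JAK3. All groups received activation and interferon, and cultures lacking inhibitor or interferon were not analysed here, so that each level stands against the other inhibitors and not against full or absent induction. There was 1 array per inhibitor and time, 14 in all, and the inhibitors that share a target class served as its replicates, with JAK1, JAK1/2, PAN and TYK2 in the JAK1/TYK2 class and JAK2, IFN.6226 and IFN.6228 in the JAK2/JAK3 class. Nothing in the labels says whether arrays came from separate animals or cultures.

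The type I interferon receptor carries JAK1 and TYK2, whose signal leads to ISGF3, the transcription factor that binds the interferon-stimulated response element. Mx proteins are dynamin-like GTPases that assemble on viral nucleocapsids. Rsad2 encodes viperin, a radical SAM enzyme that turns CTP into a chain-terminating nucleotide, and Cmpk2 encodes a mitochondrial kinase that phosphorylates pyrimidine nucleoside monophosphates such as CMP. Inbred strains such as C57BL/6 carry defective Mx alleles, and RefSeq annotates Mx1 and Mx2, both on chromosome 16, as transcribed pseudogenes there, so these arrays report their RNA and not a working protein. Rsad2 and Cmpk2 are protein coding and are neighbours on chromosome 12 with 0 annotated genes between them, whereas 2 annotated genes, 1 of them protein coding, lie between Mx1 and Mx2.

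The promoters of Rsad2 and Cmpk2 are shown because both members of this neighbouring pair have a window in the RefSeq table used and were lower in the JAK1/TYK2 class. Each window runs from 250 bases before to 50 bases after the annotated start (RefSeq, GRCm38.p6), at chr12:26456403-26456702 on the minus strand for Rsad2 and chr12:26468965-26469264 on the plus strand for Cmpk2. Capitals mark a match to the response element, searched as GAAA, any 2 bases and GAAA, on both strands.
Rsad2: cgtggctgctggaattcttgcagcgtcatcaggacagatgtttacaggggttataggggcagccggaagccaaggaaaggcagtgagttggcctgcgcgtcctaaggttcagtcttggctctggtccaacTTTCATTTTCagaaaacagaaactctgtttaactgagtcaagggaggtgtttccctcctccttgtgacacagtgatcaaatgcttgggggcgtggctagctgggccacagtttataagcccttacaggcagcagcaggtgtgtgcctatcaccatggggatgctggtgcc
Cmpk2: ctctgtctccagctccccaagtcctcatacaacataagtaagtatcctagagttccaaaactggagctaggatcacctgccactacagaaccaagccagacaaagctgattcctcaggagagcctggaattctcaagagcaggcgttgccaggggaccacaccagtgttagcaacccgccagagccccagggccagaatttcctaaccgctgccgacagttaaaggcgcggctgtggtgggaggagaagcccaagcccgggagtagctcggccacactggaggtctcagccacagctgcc
The Rsad2 window held 1 match, TTTCATTTTC, whose first base lies at position -120 from the start. The Cmpk2 window held none of these letters, and neither window held TTC, any 3 bases and GAA, the element of STAT homodimers. The response element letters occurred in 3.44% of all 32851 promoter windows and those of the STAT homodimer element in 8.30%. Among other interferon-induced antiviral genes, 11 of 26 windows (42.3%) held the response element letters and 8 of 26 (30.8%) those of the STAT homodimer element. Mx1 and Mx2 are named here without a promoter sequence.

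On the arrays, T cell transcripts were bright, with mean log2 intensities of 12.37 for Cd3e and 11.82 for Cd4, and the markers of natural killer cells and granulocytes read 4.31 to 6.01, below the level a gene needed to be tested. Markers of other cells were above that level, namely Cd79b (9.57), Ms4a1 (8.57) and Cd79a (8.04) of B cells, Cd8b1 (8.99) and Cd8a (6.81) of CD8 T cells, Lyz2 (7.12) of macrophages and monocytes and Bst2 (8.16) of dendritic cells. The other macrophage and monocyte markers lay below it, Csf1r at 5.49, Adgre1 at 4.72 and Itgam, at 6.268, only just. So did the other dendritic cell markers, Itgax (5.49), Flt3 (6.01), Siglech (6.05) and Clec9a (4.46). The median of an array was 109 to 121 intensity units, any 2 arrays correlated at Pearson r of 0.980 to 0.998, and 0 pairs were identical. The 8 h array of the JAK1 inhibitor had the lowest upper quartile (398 units, the next 427, the highest 497). In bulk RNA, fewer cells of a type and less RNA per cell cannot be told apart.

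All 4 genes were lowest with the JAK1 inhibitor at both times, and all 4 were lower with every JAK1/TYK2-class inhibitor than with every JAK2/JAK3-class inhibitor. Levels below are log2 intensities, on which a difference of 1 is a doubling, and they compare arrays for a given gene only.

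Mx1 at 8 h read 5.58 with the JAK1 inhibitor, 7.38 with JAK1/2, 7.65 with PAN and 7.03 with TYK2, against 8.09 with JAK2, 7.97 with IFN.6226 and 7.79 with IFN.6228. At 2 h it read 5.30, 6.04, 6.23 and 5.79 with JAK1, JAK1/2, PAN and TYK2, against 7.49, 7.33 and 7.39 with JAK2, IFN.6226 and IFN.6228. The JAK1 array was the lowest at either time and the classes did not overlap, with a gap between them of 0.13 at 8 h and 1.09 at 2 h. Mx2, the second Mx gene, read 5.25, 7.29, 7.41 and 7.01 at 8 h with JAK1, JAK1/2, PAN and TYK2, against 8.10, 7.93 and 7.75 with JAK2, IFN.6226 and IFN.6228. At 2 h it read 5.02, 5.87, 6.08 and 6.06 with JAK1, JAK1/2, PAN and TYK2, against 7.13, 7.25 and 7.39 with JAK2, IFN.6226 and IFN.6228. Its gaps between classes were 0.33 at 8 h and 1.05 at 2 h. With the JAK1 inhibitor at both times, and with all 4 JAK1/TYK2-class inhibitors at 2 h, both Mx genes lay below 6.27, the mean level a gene needed to be tested. That level applies to the mean over all arrays, which was 6.93 for Mx1 and 6.83 for Mx2. The JAK1/TYK2 class averaged 5.84 and 5.76 for Mx1 and Mx2 at 2 h, the JAK2/JAK3 class 7.40 and 7.26. That both were tested at 2 h thus drew on arrays in which they were higher.

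Rsad2, the viperin gene, read 6.81, 8.80, 9.20 and 8.57 at 8 h with JAK1, JAK1/2, PAN and TYK2, against 9.60, 9.45 and 9.50 with JAK2, IFN.6226 and IFN.6228. At 2 h it read 6.54, 7.25, 7.33 and 7.12 with JAK1, JAK1/2, PAN and TYK2, against 9.08, 8.90 and 9.06 with JAK2, IFN.6226 and IFN.6228. At 2 h its classes stood furthest apart of the 4 genes, by 1.57, and at 8 h the gap was 0.26. Cmpk2, the nucleotide kinase gene, read 7.08, 8.37, 8.68 and 8.31 at 8 h with JAK1, JAK1/2, PAN and TYK2, against 9.10, 8.83 and 8.70 with JAK2, IFN.6226 and IFN.6228. At 2 h it read 6.82, 7.64, 7.75 and 7.66 with JAK1, JAK1/2, PAN and TYK2, against 8.94, 8.87 and 8.92 with JAK2, IFN.6226 and IFN.6228. Its gap was 1.12 at 2 h but 0.02 at 8 h, where the PAN array all but reached the lowest JAK3 array.

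Classes without overlap and lower in the JAK1/TYK2 class were found for 13.6% of the tested genes at 8 h and 3.13% at 2 h. The order within the JAK1/TYK2 class was JAK1 lowest and PAN highest for each gene at each time, with JAK1/2 and TYK2 between them. TYK2 was below JAK1/2 for all 4 genes at 8 h and for Mx1 and Rsad2 at 2 h, but above it for Mx2 and Cmpk2 at 2 h. In the JAK2/JAK3 class, JAK2 was highest for all 4 genes at 8 h and for 3 of them at 2 h, the exception being Mx2, which was lowest with JAK2. In the pairwise tests given further on, no pair among JAK2, IFN.6226 and IFN.6228, and none among JAK1/2, PAN and TYK2, passed after adjustment.

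**Figure D1:**
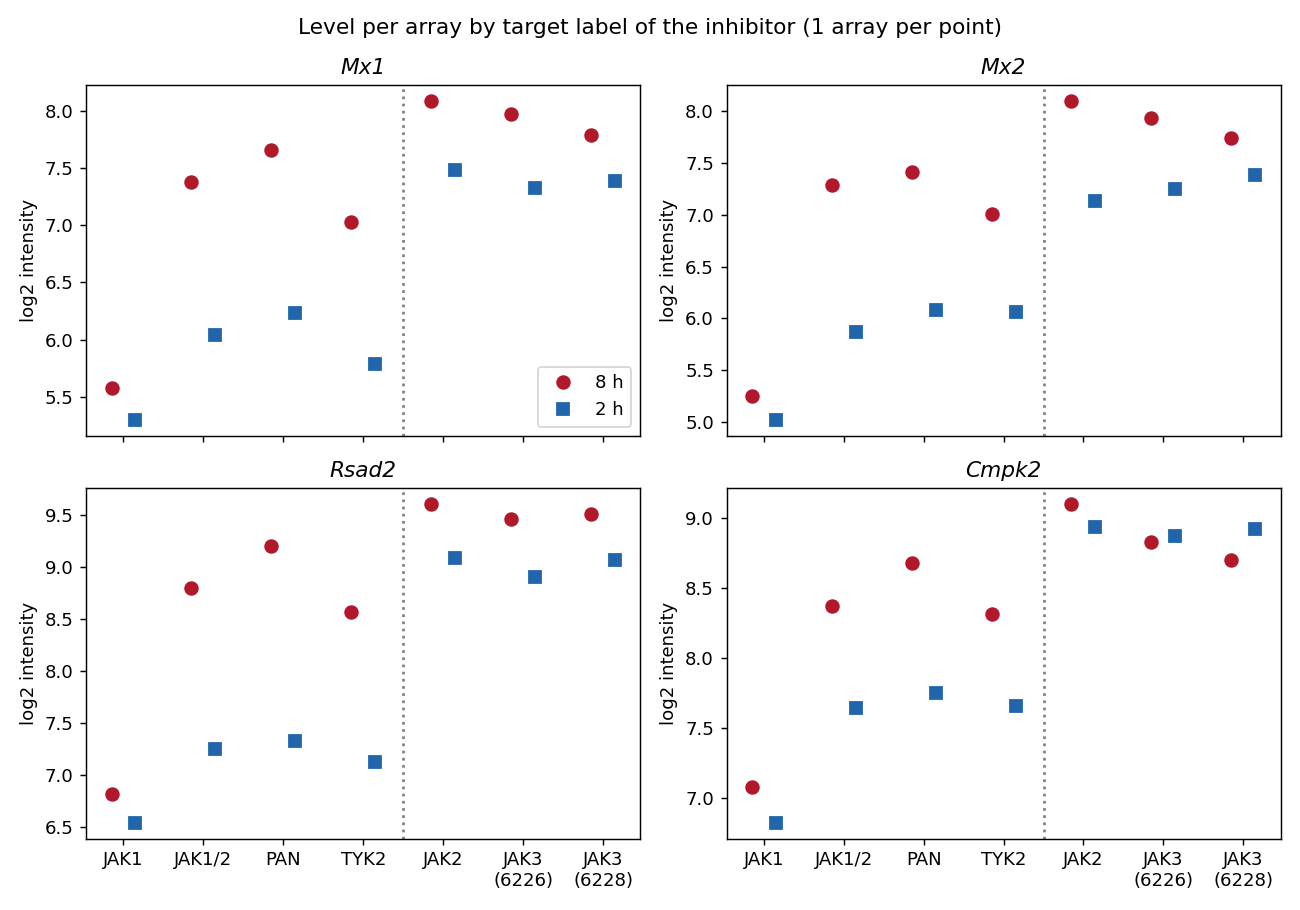
Log2 intensity (vertical axes) of Mx1, Mx2, Rsad2 and Cmpk2 on each array, by inhibitor (horizontal axes), with 8 h as red circles left of 2 h as blue squares and a dotted line between the JAK1/TYK2 class and the JAK2/JAK3 class. Each point is 1 array; the JAK1 inhibitor's points are the lowest in every panel.

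As a share of the geometric mean of the JAK2/JAK3 class, the JAK1 inhibitor left 19.4% of Mx1 intensity, 15.7% of Mx2, 15.3% of Rsad2 and 28.7% of Cmpk2 at 8 h. At 2 h it left 23.3%, 21.2%, 18.0% and 23.5% of Mx1, Mx2, Rsad2 and Cmpk2. The other 3 JAK1/TYK2-class inhibitors left more, and much more at 8 h than at 2 h. For Rsad2 the PAN inhibitor left 80.0% at 8 h and 31.0% at 2 h, JAK1/2 60.6% and 29.4%, and TYK2 51.7% and 27.0%. For Cmpk2 PAN left 87.3% at 8 h and 44.6% at 2 h, JAK1/2 70.6% and 41.5%, and TYK2 67.6% and 42.0%. The Mx genes lay between 52.9% and 81.5% with these 3 inhibitors at 8 h and between 32.6% and 44.5% at 2 h.

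The first comparison set the inhibitors labelled with JAK1 or TYK2, together with PAN, against those labelled with only JAK2 or JAK3. The label JAK1/2 also names JAK2, so a difference lies between groups of compounds and cannot be assigned to 1 kinase. At 2 h all 4 genes passed as lower in the JAK1/TYK2 class (limma, adjusted over all genes). The threshold of 0.05 was passed by 0.692% of the 11851 genes, all of them lower. Rsad2 averaged 7.06 ± 0.36 in the JAK1/TYK2 class and 9.01 ± 0.10 in the JAK2/JAK3 class (SD, n = 4 and 3), a difference of -1.95 (SE 0.15, limma adjusted p = 1.09e-04), or 3.88-fold lower. Mx1 averaged 5.84 ± 0.40 in the JAK1/TYK2 class and 7.40 ± 0.08 in the JAK2/JAK3 class (limma adjusted p = 7.68e-04, 2.95-fold lower). In these samples Rsad2 had the smallest p of all genes tested and the third lowest difference, and the other 3 stood among the 12 lowest differences. Mx2 averaged 5.76 ± 0.50 in the JAK1/TYK2 class and 7.26 ± 0.13 in the JAK2/JAK3 class, a difference of -1.50 (SE 0.20, limma adjusted p = 0.00274). Cmpk2 averaged 7.47 ± 0.43 in the JAK1/TYK2 class and 8.91 ± 0.04 in the JAK2/JAK3 class, a difference of -1.44 (SE 0.17, limma adjusted p = 0.00119). The Mx2 call was lost without IFN.6228 (limma adjusted p = 0.0579), and with robust moderation of the variances the calls of Mx2 and Cmpk2 were lost (limma adjusted p = 0.124 and 0.0534). The folds depend on the scale of the dim readings. With an offset of 50 intensity units before the log, Mx1, Mx2, Rsad2 and Cmpk2 differed by -1.02, -0.95, -1.62 and -1.22. All 4 still passed, and Cmpk2 then differed more than either Mx gene.

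At 8 h none of the 4 passed the test, although all 4 were lower in the JAK1/TYK2 class. Rsad2 averaged 8.34 ± 1.05 in the JAK1/TYK2 class and 9.52 ± 0.08 in the JAK2/JAK3 class (SD, n = 4 and 3), a difference of -1.18 with a 95% interval of -2.07 to -0.28. Cmpk2 averaged 8.11 ± 0.71 in the JAK1/TYK2 class and 8.88 ± 0.21 in the JAK2/JAK3 class, a difference of -0.77 with an interval of -1.40 to -0.13. The differences of Mx1 and Mx2 were -1.04 and -1.19, and the limma adjusted p was 0.307 for each of the 4. The limma test passed 0 of 11851 genes at 8 h (0%), while 1858 had an unadjusted p under 0.05. The spread lay within the JAK1/TYK2 class, whose SD was 6.11 times that of the JAK2/JAK3 class for Mx1 and 13.7 times for Rsad2. Without the JAK1 inhibitor the differences at 8 h shrank to -0.60, -0.69, -0.67 and -0.42 for Mx1, Mx2, Rsad2 and Cmpk2 and stayed outside the threshold (limma adjusted p 0.201 to 0.343).

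Averaged over both times, the 4 differences between classes were -1.30, -1.34, -1.57 and -1.11 for Mx1, Mx2, Rsad2 and Cmpk2 (limma adjusted p 0.241 to 0.298), and limma passed 0 of all genes (0%), with 1250 at an unadjusted p under 0.05. Without the JAK1 inhibitor all 4 passed, at -0.99, -0.97, -1.22 and -0.83, where 98 of 11851 genes passed. Of 12 tested cell type markers, 5 of CD4 T cells and 7 of other cell types, 0 passed between the classes at 2 h, and 0 at 8 h, where no gene did. The mean of 3 B cell markers ran from 8.83 to 9.04 in the JAK1/TYK2 class and from 8.97 to 9.14 in the JAK2/JAK3 class at 8 h. At 8 h the mean of the 3 granulocyte markers, all 3 below the intensity filter, ran from 5.40 to 5.58 in the JAK1/TYK2 class and from 5.31 to 5.32 in the JAK2/JAK3 class. At 2 h it ran from 5.15 to 5.27 and overlapped the 5.03 to 5.30 of the JAK2/JAK3 class. No marker is at 0 on an array, and the part of these markers in the 8 h differences was not tested.

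**Figure D2:**
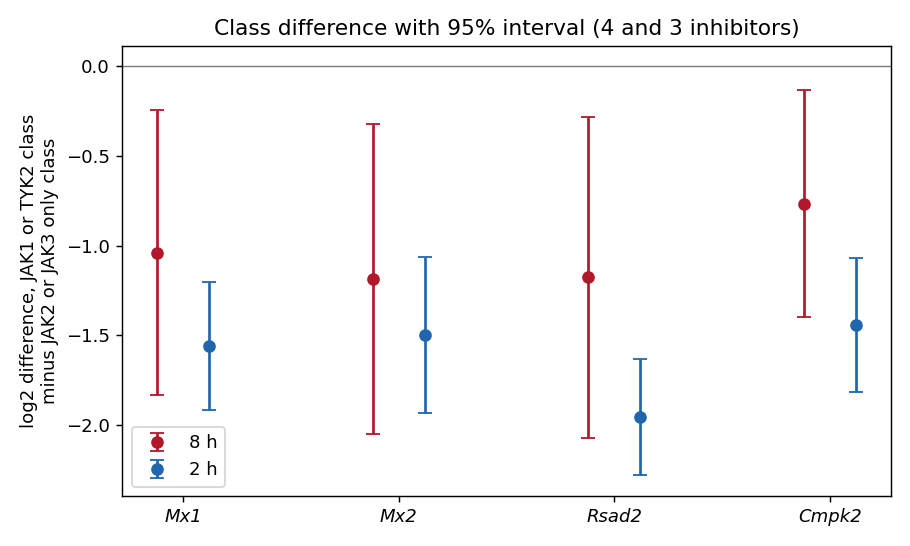
Difference of the JAK1/TYK2 class minus the JAK2/JAK3 class in log2 intensity for Mx1, Mx2, Rsad2 and Cmpk2 at 8 h and at 2 h, with 95% intervals from limma (4 against 3 inhibitors). All 8 intervals lie below 0, those at 8 h are the wider ones, and after adjustment over all genes only the 2 h differences passed.

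The second comparison asked how the transcripts changed between 2 h and 8 h of interferon under each inhibitor. All 4 rose over the 7 inhibitors, the Mx genes and Rsad2 in 7 of 7 and Cmpk2 in 5 of 7. The fitted rises were 0.85 for Mx1 (SE 0.13, limma adjusted p = 8.93e-05), 0.85 for Mx2 (SE 0.13, limma adjusted p = 6.31e-05), 0.95 for Rsad2 (SE 0.17, limma adjusted p = 3.12e-04) and 0.35 for Cmpk2 (SE 0.12, limma adjusted p = 0.0230). Time moved much of the transcriptome, with 49.3% of genes passing (21.3% higher and 28% lower at 8 h), so passing was common. Being higher at 8 h in all 7 inhibitors was met by 16% of genes. Of the 12 tested cell type markers 10 were also higher at 8 h, among them Ms4a1 (0.78), Cd79a (0.51) and Cd79b (0.27) of B cells, Cd8b1 (0.42) of CD8 T cells and Cd4 itself (0.35), beside the 0.35 of Cmpk2. The mean of 3 B cell markers ran from 8.83 to 9.14 at 8 h and from 8.39 to 8.61 at 2 h, and the part of these cells in the rises was not tested. The Cmpk2 call was lost when JAK1/2, PAN or TYK2 was left out (limma adjusted p 0.0767, 0.0807 and 0.0748).

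The rises differed widely within the JAK1/TYK2 class. Rsad2 was higher at 8 h than at 2 h by 0.27 with the JAK1 inhibitor, 1.55 with JAK1/2, 1.87 with PAN and 1.44 with TYK2, against 0.52 with JAK2, 0.56 with IFN.6226 and 0.44 with IFN.6228. Mx1 was higher by 0.28, 1.34, 1.42 and 1.25 with JAK1, JAK1/2, PAN and TYK2, against 0.60, 0.64 and 0.40 with JAK2, IFN.6226 and IFN.6228. For both genes the 3 largest rises were those of JAK1/2, PAN and TYK2, and the smallest was that of JAK1. Mx2 was higher by 0.23, 1.42, 1.33 and 0.95 with JAK1, JAK1/2, PAN and TYK2, against 0.97, 0.68 and 0.36 with JAK2, IFN.6226 and IFN.6228, so here JAK2 overlapped TYK2. Cmpk2 was higher by 0.25, 0.74, 0.94 and 0.65 with JAK1, JAK1/2, PAN and TYK2, against 0.16 with JAK2, -0.04 with IFN.6226 and -0.22 with IFN.6228, and for this gene all 4 class members exceeded all 3 others. The share of all genes whose rises separate in this way was not counted, and the direct test given below did not pass for Cmpk2.

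Within the JAK1/TYK2 class the mean rises were 1.07 for Mx1, 0.98 for Mx2, 1.28 for Rsad2 and 0.64 for Cmpk2, and all 4 passed (limma adjusted p 2.88e-05 to 1.42e-04), where 46.2% of genes passed and 17.6% passed as higher. Within the JAK2/JAK3 class Mx1 rose by 0.55 (limma adjusted p = 0.0193) and Mx2 by 0.67 (limma adjusted p = 0.00935), where 32.3% of genes passed and 17.5% passed as higher. Rsad2 there read 0.50 (limma adjusted p = 0.0679) and Cmpk2 -0.03 (limma adjusted p = 0.876). Both Mx calls were lost without JAK2 (limma adjusted p = 0.110 and 0.120) and that of Mx1 without IFN.6226 (0.108), while Rsad2 passed without the JAK1 inhibitor (limma adjusted p = 2.11e-04) or without PAN (0.0296). For this rise 4615 of 11851 genes passed without the JAK1 inhibitor and 3827 without PAN. The direct test of the difference between the classes' rises gave 0.52 for Mx1, 0.31 for Mx2, 0.78 for Rsad2 and 0.68 for Cmpk2. None passed (limma adjusted p 0.276 to 0.527), where 0.101% of genes did. Leaving out the JAK1 inhibitor, whose rise was the smallest of its class for each gene, brought Mx1 (0.79), Rsad2 (1.12) and Cmpk2 (0.81) past the threshold, where 41 of 11851 genes passed.

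**Figure D3:**
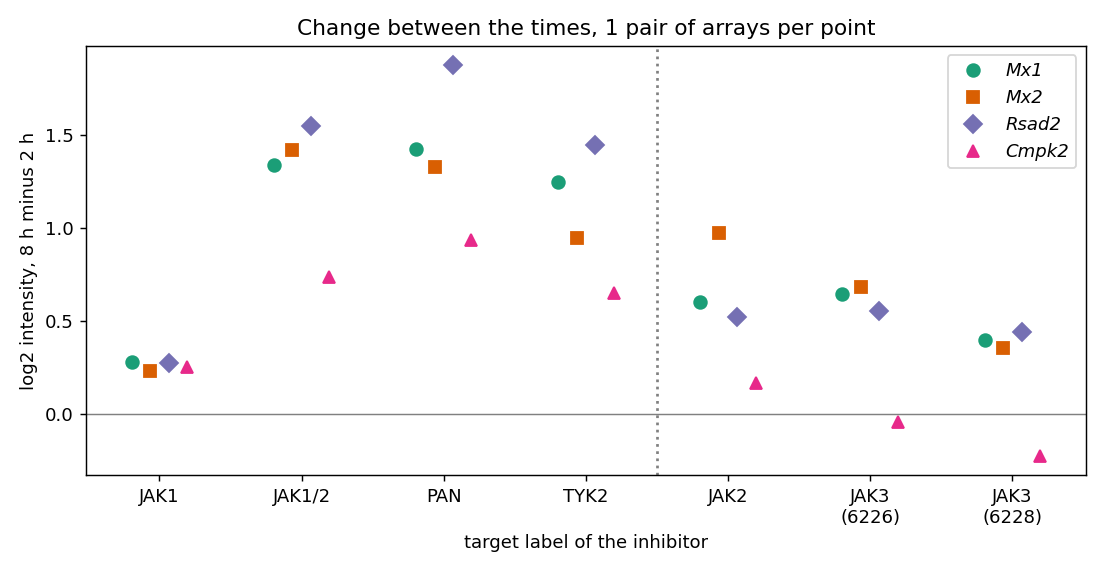
Log2 intensity at 8 h minus that at 2 h (vertical axis) for each inhibitor and each of the 4 genes, 1 point per pair of arrays, JAK1/TYK2 class left of the JAK2/JAK3 class. The JAK1 inhibitor's points lie between 0.23 and 0.28, below those of JAK1/2, PAN and TYK2 for every gene, and the Cmpk2 points of the 2 JAK3 inhibitors lie below 0.

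The third comparison set each inhibitor against the other 6 over both times. With no repeated array, its error is what the fit of inhibitor and time left over. The JAK1 inhibitor was the only one under which any of the 4 genes passed, and all 4 did, lower, where 7.66% of genes passed, 6.73% as lower and 0.937% as higher. Mx2 was 3.92-fold lower (difference -1.97, SE 0.18, limma adjusted p = 1.71e-05) and Cmpk2 2.89-fold lower (difference -1.53, SE 0.17, limma adjusted p = 1.02e-04). These folds depend on the scale of the dim readings, since with an offset of 50 intensity units before the log the differences of Mx1, Mx2, Rsad2 and Cmpk2 were -1.10, -1.17, -1.60 and -1.24, so that Mx2 no longer exceeded Cmpk2, and all 4 still passed. Without the JAK1 8 h array, which had the lowest upper quartile, the differences of Mx1, Mx2, Rsad2 and Cmpk2 were -1.41, -1.61, -1.59 and -1.47, and all 4 still passed (limma adjusted p 4.66e-04 to 0.00897). Of the markers of cell types only Bst2 passed (-0.82), a gene that is itself interferon-induced. With JAK2, the 4 genes read 0.88 to 1.13 above the other 6 inhibitors and none passed (limma adjusted p 0.0657 to 0.0937), where 0.0759% of genes did. The 2 JAK3 compounds were alike, with the 4 genes 0.68 to 0.94 above the other 6 for IFN.6226 and 0.64 to 1.06 for IFN.6228. None of the 4 passed with either compound, where 0% of genes did. All 4 passed with JAK2 once IFN.6226, IFN.6228 or the JAK1 8 h array was left out (limma adjusted p 0.0138 to 0.0442), and Mx1, Rsad2 and Cmpk2 did without PAN. Median centring of the arrays also brought all 4 past the threshold (limma adjusted p 0.0235 to 0.0453). The share of all genes that passed in the altered fits of this comparison was not counted. With TYK2 the 4 genes read 0.32 to 0.61 below, and none passed (0% of genes did). With JAK1/2, 0.00844% of genes passed and none of the 4, and with PAN 0% did.

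Pairs of inhibitors were compared at the shared concentration rule (IC80) and both times, 21 pairs for each of 4 genes, with p adjusted over all genes and all pairs. Of the 84 differences 19 passed. Against JAK2, IFN.6226 and IFN.6228 the JAK1 inhibitor was lower in 12 of 12, by -2.67 to -1.86, where 1.17% to 1.65% of genes passed per pair. The largest was that of Rsad2 against JAK2 (-2.67, 95% interval -3.35 to -1.99). Against the other members of its own class the JAK1 inhibitor was lower in 12 of 12 and passed in 6 of 12, where 0.346% of genes passed against JAK1/2, 0.506% against PAN and 0.802% (0.751% lower) against TYK2. These 6 were Mx1 (-1.27) and Mx2 (-1.44) against JAK1/2, Mx1 (-1.50), Mx2 (-1.61) and Cmpk2 (-1.26) against PAN, and Mx2 (-1.40) against TYK2. With the offset of 50, Mx1 and Mx2 against JAK1/2 (-0.76 and -0.81) and Mx2 against TYK2 (-0.76) no longer passed (limma adjusted p = 0.0896, 0.0562 and 0.0801). Rsad2 passed against none of the 3, with differences of -1.35 against JAK1/2, -1.59 against PAN and -1.17 against TYK2 and a standard error of 0.32, the widest of the 4 genes.

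JAK1/2, PAN and TYK2 were below JAK2, IFN.6226 and IFN.6228 in 36 of 36 differences (-1.50 to -0.60), of which 1 passed, Mx1 with TYK2 against JAK2 (-1.38, limma adjusted p = 0.0277), where 0.0928% of genes did. Among JAK1/2, PAN and TYK2, 0 of 12 passed and the 95% intervals, which are not adjusted for the number of pairs, ran from -0.91 to 1.09. The interval of Mx1 with PAN against TYK2, 0.01 to 1.06 around a difference of 0.54, was the only one that left out 0 (limma adjusted p = 0.644). Among JAK2, IFN.6226 and IFN.6228, 0 of 12 passed and the intervals ran from -0.78 to 0.84. The 2 compounds labelled JAK3 differed by -0.11 to 0.06 over the 4 genes, with intervals from -0.78 to 0.58. With no repeated array, the error of this fit holds both noise and any way in which the inhibitors differ in their change over time.

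**Figure D4:**
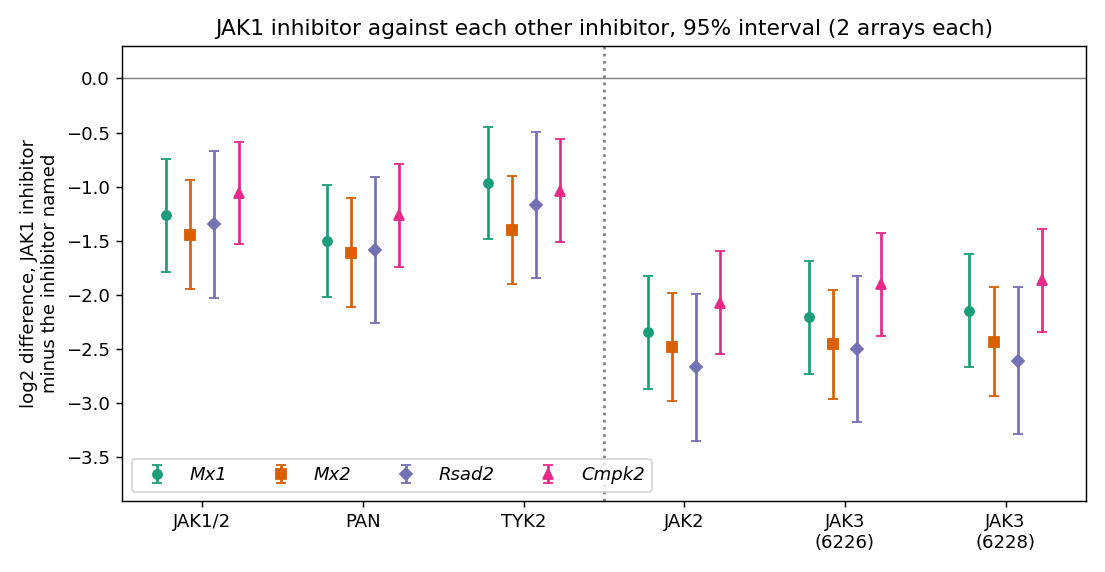
Log2 intensity with the JAK1 inhibitor minus that with the inhibitor named on the horizontal axis (vertical axis, with the 95% interval from the additive fit of inhibitor and time), for the 4 genes, 2 arrays per inhibitor. Every difference is below 0, from -2.67 to -0.97, and those against JAK2, IFN.6226 and IFN.6228 are the larger ones.

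The 4 genes did not keep fixed proportions over time. From the log2 ratio of Mx1 to Cmpk2, the 8 h arrays exceeded the 2 h arrays by 0.49 ± 0.22 (SD, n = 7), higher in 7 of 7 inhibitors (exact sign-flip test, two-sided p = 0.0156, adjusted over 6 ratios 0.0469). The ratio of Rsad2 to Cmpk2 was higher by 0.60 ± 0.32, also in 7 of 7, with the same p, which is the smallest that 7 pairs allow. Mx2 to Cmpk2 was higher by 0.49 in 6 of 7 (exact p = 0.0313, adjusted 0.0625). The 3 ratios among Mx1, Mx2 and Rsad2 had adjusted p of 0.328 to 1. With an offset of 50 intensity units before the log, 0 of the 6 ratios passed. Between the classes, 0 of 12 ratios passed, and 4 inhibitors against 3 allow no exact permutation p below 0.0571. That p was reached at 2 h by Rsad2 over Cmpk2 (-0.51), Mx1 over Rsad2 (0.39) and Mx2 over Rsad2 (0.46), and at 8 h by Mx2 over Cmpk2 (-0.42).

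Over the 14 arrays the 4 genes correlated with each other at Pearson r between 0.960 (Mx1 with Cmpk2) and 0.995 (Mx1 with Rsad2). These points share inhibitors and times, and the r describe these arrays only. Among all other tested genes, Oasl2, an oligoadenylate synthetase-like gene, was nearest to Mx1 (r = 0.992), to Mx2 (r = 0.990) and to Rsad2 (r = 0.992). Next came Usp25 (0.985) and Ifit3 (0.985) for Mx1, Tnfsf10 (0.983) and Zbp1 (0.981) for Mx2, and Daxx (0.988) and Usp25 (0.985) for Rsad2. The genes nearest to Cmpk2 were others, namely Dtx3l (0.987), the cytosolic antibody receptor Trim21 (0.984) and the RNA sensor Ifih1 (0.984). Oasl2 averaged 8.26 in the JAK1/TYK2 class and 9.47 in the JAK2/JAK3 class at 8 h, and 7.24 in the JAK1/TYK2 class and 8.95 in the JAK2/JAK3 class at 2 h. Trim21 averaged 9.45 in the JAK1/TYK2 class and 9.77 in the JAK2/JAK3 class at 8 h, and 9.07 in the JAK1/TYK2 class and 9.80 in the JAK2/JAK3 class at 2 h. The JAK2/JAK3-class means of Trim21 and of Cmpk2 (8.88 at 8 h and 8.91 at 2 h) thus lay close together at the 2 times.

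Other genes of the pathway were described through 5 lists. Of 23 tested interferon-induced antiviral effectors, 15 passed as lower in the JAK1/TYK2 class at 2 h and 0 as higher. Of all genes, 0.692% passed as lower and 0% as higher. The median difference of the effectors was -0.90, against 0.01 over all genes tested. Among the 15 were Parp12 (-1.30), an ADP-ribosyltransferase, Oasl2 (-1.72), and Oas3 (-1.36) and Oas2 (-0.99), which make the activator of RNase L. The median over Mx1, Mx2, Rsad2 and Cmpk2 was -1.53. Of 13 genes from the receptor to the nucleus, 2 passed as lower and the median was -0.04. These were Stat2 (-1.12) and Usp18 (-1.99), a protease that restrains the receptor, while Irf7 read -1.50 (limma adjusted p = 0.0690) and Irf9 -0.37. The kinases Jak1 and Tyk2 read -0.03 and 0.06, and the receptor chain Ifnar1 read 0.00. The other receptor chain is not reported here.

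Relatives of the 4 proteins outside the interferon response did not pass at 2 h, where 0.692% of all genes did and lists of this size would hold few or none. Passing were 0 of 7 other dynamin-superfamily GTPases, 0 of 22 genes of pyrimidine nucleotide and dNTP supply and 0 of 12 viperin partners and iron-sulfur assembly genes. Atl3, an atlastin of the endoplasmic reticulum, read -0.21, Mfn1, which fuses mitochondria, -0.07, Opa1, a fusion GTPase of the inner membrane, -0.04 and Dnm1l, which divides them, 0.06. Cmpk1, the cytosolic counterpart of Cmpk2, read 0.08, the thymidine kinase Tk1 0.11 and the CTP synthase Ctps2 0.14. Fdps, the farnesyl diphosphate synthase that viperin binds, read -0.11 and the iron-sulfur assembly factor Ciapin1 0.12. Over time 1 dynamin relative was lower and 1 higher. Of the 22 pyrimidine genes 12 were lower and 3 higher at 8 h than at 2 h, and of the 12 viperin partners 6 were lower and 0 higher, against 28% of all genes lower and 21.3% higher. Fdps fell by 1.22 (SE 0.07, limma adjusted p = 5.15e-09) and Ciapin1 by 0.44, Ctps2 rose by 0.32, and Cmpk1 read -0.13 without passing. Of the 23 effectors 19 were higher at 8 h and 0 lower, with Oas3 at 1.52 and Oas2 at 1.23.

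With the JAK1 inhibitor against the other 6, 19 of the 23 effectors and 6 of the 13 receptor-to-nucleus genes passed as lower. So did 4 of the 22 pyrimidine genes, 4 of the 12 viperin partners and 1 of the 7 dynamin relatives. In these lists 0 passed as higher, and of all genes 6.73% passed as lower. These list counts were not repeated without the JAK1 8 h array, which had the lowest upper quartile. Usp18 read -2.43, Irf7 -1.96, Oasl2 -1.94, Parp12 -1.39 and Stat2 -1.12, and all 5 passed. Fdps was lower by 0.61 on the log2 scale (limma adjusted p = 0.00176) and Atl3 by 0.43 (limma adjusted p = 0.00662), while Cmpk1 read -0.12 and Ctps2 0.11 without passing. Isg15, for which no single-symbol probe set was used, was not analysed here.

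**Figure D5:**
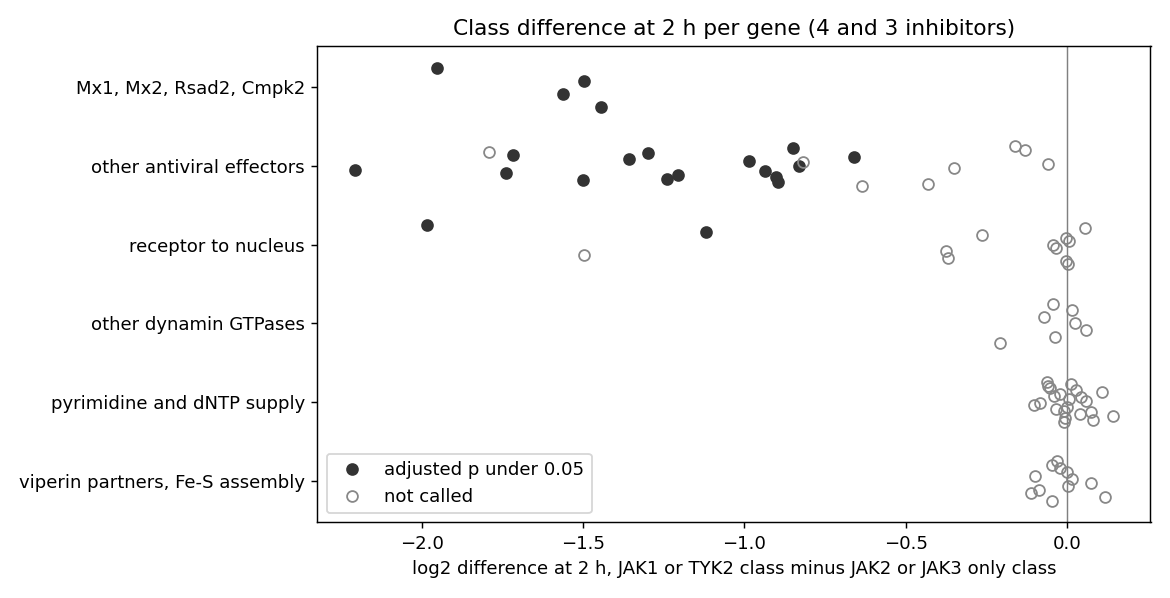
Log2 difference of the JAK1/TYK2 class minus the JAK2/JAK3 class at 2 h for each tested gene of the 4-gene set and of the 5 pathway lists, 1 point per gene, filled where the limma adjusted p was under 0.05. The 4 genes lie between -1.95 and -1.44, 15 of 23 effectors are filled, and no gene of the dynamin, pyrimidine or viperin-partner lists is.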

How the data were processed

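RNA of activated CD4+ T cells was hybridised to 14 Affymetrix Mouse Gene 1.0 ST arrays. The authors deposited 1 intensity per probe set and array on a linear scale. RMA and Affymetrix Power Tools were used per the submitters' processing notes. The genome build, the background correction and which arrays were normalized jointly are not given in the sources used here.

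Intensities were put on the log2 scale. Of 24922 probe sets, the 21425 with 1 gene symbol were used (1399 had several, 2098 none). The brightest per gene was kept. Genes at or above the 40th percentile of mean log2 intensity (6.27) were tested, 11851 of 19752. Arrays have no read depth; their number limits the precision.

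In R 4.3.3, limma 3.58.1 (lmFit, eBayes with trend) fitted the classes on 1 value per inhibitor, and inhibitor plus time for times, single inhibitors and pairs. The p-values are Benjamini-Hochberg adjusted over all genes, with a threshold of 0.05, and hold for these samples only. For the classes they rest on the spread between the inhibitors of a class. For times over all inhibitors, single inhibitors and pairs they rest on what the fit of inhibitor and time left over. Ratios were tested by exact sign-flip and permutation tests, two-sided. Tables and figures used Python 3.11.15, numpy 2.4.6, pandas 2.3.3 and matplotlib 3.10.9. In simulated data on 11851 genes, a log2 change of 1 was recovered in 98% (classes at 2 h), 99% (time) and 96% (JAK1 inhibitor) of changed genes. The simulated noise was what a fit of inhibitor and time left over, and it held no spread between inhibitors. The share for the classes is therefore not the power of the class tests on these arrays.

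The 4 genes, the gene lists and the tests were chosen with earlier results of these data known. Listed genes named are the 4 with the largest moderated t of each list at 2 h, and likeness names the 3 nearest genes per member; Jak1, Tyk2, Ifnar1, Isg15 and the cell type markers were named after their values were seen.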

Additional observations from a re-analysis of the deposited data

Results flagged for a closer look

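Within the 4 inhibitors of the JAK1/TYK2 class, the JAK1 inhibitor stood far from the others in 2 of 12 groups of values examined (3 per gene). The Mx1 rise from 2 h to 8 h was 0.28 with JAK1, and its gap to the nearest other inhibitor was 0.845 of the group's range, above Dixon's 95% value of 0.829. Cmpk2 at 2 h read 6.82 with JAK1, with a gap of 0.885 of the range. Chance flags about 5% of such groups, and the 12 groups share the same arrays.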

How the results depend on the processing

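Of 1928 alternative values for single genes and ratios, 1789 kept their direction and their side of the threshold, 71 gained a call, 50 lost one and 18 changed sign. The main counts of the 4 genes passing were 4 for the classes at 2 h, 4 and 2 for the rise in the JAK1/TYK2 and JAK2/JAK3 classes, 4 for the rise over all inhibitors, 4 of 28 for each inhibitor against the rest and 19 of 84 for pairs. Median centring gave 9 of 28 and 35 of 84. A filter at the 60th percentile, which leaves out both Mx genes, gave 2 at 2 h, 2 and 0 for the rises by class, 2 over all inhibitors, 2 against the rest and 8 pairs. Robust moderation gave 2 at 2 h. Averaging the JAK3 inhibitors gave 1 rise in the JAK2/JAK3 class and 8 against the rest. Leaving out the JAK1 8 h array gave 9 against the rest, and a fit with no block for the inhibitor gave 0 rises. For the tests against the rest and the pairs, the share of all genes passing under these alternatives was not counted.

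With each inhibitor left out in turn, 0 to 4 genes passed for the mean of both times, 0 to 3 for the rise in the JAK2/JAK3 class, 0 to 3 for the difference of rises, 0 to 8 against the rest and 1 to 25 pairs. Ratios over time passed in 0 with an offset of 50. They also passed in 0 with the JAK3 inhibitors averaged and in every such omission. Those runs hold fewer pairs, and the smallest sign-flip p they allow is too large for the 2 ratios of the main analysis to pass alone after adjustment. They therefore cannot tell whether the 2 ratios depend on a single inhibitor. Signs changed for Mx2 with JAK2 against IFN.6226 (-0.0335 under quantile normalization, -0.0119 under median centring) and Cmpk2 with JAK1/2 against TYK2 (-0.00918 under median centring). The Cmpk2 rise in the JAK2/JAK3 class was 0.0168 with the JAK3 inhibitors averaged and ran from -0.131 to 0.0624 over the omissions. With an offset of 50 the log ratios were 0.00087 (Mx1/Mx2 over time), 0.20 (Mx1/Cmpk2, classes at 2 h), 0.18 (Mx2/Rsad2, classes at 8 h) and 0.27 (Mx2/Cmpk2, classes at 2 h). Over the omissions Mx1/Mx2 ran from -0.0505 to 0.0613 over time and from -0.135 to 0.0558 between classes at 2 h, Mx2/Rsad2 from -0.0921 to 0.0508 at 8 h and Mx2/Cmpk2 from -0.131 to 0.00494 at 2 h. The causes were not tested.

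No paired analysis by replicate number was possible because every title carries the same number; the comparisons of times were paired by inhibitor instead. With 1 array per inhibitor and time, no single-inhibitor value has a replicate of its own, and dim readings, as for the Mx genes with the JAK1 inhibitor, limit how low a level can be read.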
